A study of Homo sapiens with 31 samples.

Results

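Transcripts of endocytosis, lysosome and autophagy genes were followed in Caco-2, a line from a human tumour of the large bowel whose confluent cells come to resemble enterocytes. The set was 48 named genes along the route by which a particle can enter a cell. A gene was taken through array rows whose annotation names that gene and no other, and where a gene had several such rows the brightest over all arrays was used. By this rule 46 of the 48 genes had a row, of 22395 genes in all, and CAV2 and NPC2 were not used here. FLOT1 was read by the brightest of 9 rows and RAB11A by the brighter of 2, so these values may not stand for all of their transcripts.

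Culture lasted 21 days, on static Transwell inserts for one system and in a gut-on-chip for the other, where medium flowed at 100 µL/h and the shear on the cells was near 0.002 dyne/cm2. Each system was then given titanium dioxide (TiO2) particles, zinc oxide (ZnO) particles, or the metal-free dispersion medium that belonged to either particle, for 6 h. For TiO2 the inserts were given 50 and the chips 100 µg/mL, and for ZnO 10 and 80 µg/mL, nominal doses that the labels describe as modelled to deposit equally. These made 8 groups of 4 arrays, except for Transwell TiO2, which had 3. All groups came from 1 cell line at passages 29 to 45, and the flow in the chip was stopped during the exposure. The labels do not say whether replicates were separate cultures, so the p-values measure only the spread between these samples. The 2 systems differ in flow, membrane and device together, and these cannot be told apart here.

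Particles and fluid are taken up in vesicles, some coated by clathrin with its AP-2 adaptor, others formed by caveolae or flotillin-rich membrane. Vesicles fuse with early endosomes under the control of Rab GTPases and pass on to lysosomes, which a proton-pumping ATPase keeps acid so that their hydrolases work. Autophagy brings the cell's own material to the same lysosomes in membranes decorated with proteins of the LC3 and GABARAP families. The transcription factors TFEB and TFE3 are known to raise the expression of lysosomal and autophagy genes.

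The files held RMA-normalised log2 values, so a difference of 1 is a change of 2-fold, and levels of different genes are not compared because each row has its own probes. Array medians lay between 3.24 and 3.33, and in no group did the mean of any of the 46 genes fall below the medians of all arrays of that group. The epithelial markers were present in every group. Of the 12 listed, 11 had a row, and the log2 of their summed level lay between 13.82 and 14.04 on every array. That sum is carried by the brightest markers. From Transwell to chip in TiO2 control medium, the mean of VIL1 was 11.07 and 10.41, of CDX2 8.605 and 7.53 and of APOA1 8.01 and 7.345. CDH17 had 12.05 and 11.94, and CDX1 4.34 and 4.18. Higher in the chip were the means of KRT20 (7.61 and 8.91), KRT8 (6.04 and 6.77), KRT18 (6.71 and 7.18) and KRT19 (10.285 and 10.69). EPCAM had 11.55 and 11.63, and CDH1 12.06 and 12.16. Single epithelial markers thus moved both ways. The macrophage and monocyte markers had a row for 8 of 8, with PTPRC and CD163 below the array medians in all groups, and their summed level was 7.65 to 8.325 in Transwell and 7.93 to 8.715 in the chip. The part of these markers in the results below was not tested. Lymphocyte markers (5 of 6 with a row) summed to between 5.21 and 5.97. Fibroblast and endothelial markers (5 of 8 with a row) summed to between 6.82 and 8.53. In these bulk samples fewer cells of a type and less RNA per cell cannot be told apart.

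Of the 31 arrays, 2 stood furthest against their labels. The check used the 11197 genes with a mean above the median gene. Replicate 4 of the chip TiO2 control group correlated positively (r = 0.254) with the profile of TiO2 minus control made from the other arrays. Replicates 1 to 3 of that group gave -0.158 to -0.075. Replicate 4 of the chip TiO2 group gave -0.327, against 0.153 to 0.249 for replicates 1 to 3. Arrays of other groups with a sign opposite to their label reached -0.193 and 0.177, in sets whose remaining replicates did not all follow their labels. Counts that use the 2 arrays are also given without both of them.

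In control medium the endocytosis, lysosome and autophagy genes differed between the chip and the Transwell. A gene passed where its adjusted p from limma, with Benjamini-Hochberg adjustment over all genes, was below 0.05. Averaged over both control media, 23 of the 46 genes were higher in the chip (50.0%), led by GABARAPL1, CTSS, WIPI1, MAP1LC3B, SQSTM1, ATP6V1H and NPC1 in order of size, which act in autophagy, proteolysis, acidification and cholesterol export. Another 9 were lower (19.6%), led by the proton pump subunit gene ATP6V1B2. The 46 genes were chosen with earlier results of these data known, so the shares beside these counts are descriptive and do not test enrichment. Of all genes tested, 14.6% passed as higher and 18.9% as lower. Of the 46, 45 were among the 11197 brighter genes, those with a mean above the median gene, where 24.1% passed as higher and 32.0% as lower. Their median difference was 0.20, against -0.0037 for all genes and -0.050 for the brighter genes. Without the arrays labelled chip TiO2 control replicate 4 and chip TiO2 replicate 4 the counts were 25 higher and 7 lower, 30 of these 32 being among the 32 above. Where arrays were centred on the brighter genes, all genes split into 4370 higher and 3474 lower in place of 3260 and 4235, and the 46 into 29 higher and 6 lower. This centring moves all genes up alike, by 0.078 at the median, so a difference below that size, as in EEA1, ATG5, ATG7, CTSZ and TFEB, has no settled direction.

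The route taken as a whole did not move one way. The autophagy genes had a median difference of 0.76 and the caveolae and flotillin genes of 0.56. The medians were 0.27 for clathrin and adaptor genes, 0.32 for lysosomal membrane and hydrolase genes, and 0.18 for genes of endosomal sorting. The proton pump genes had a median of -0.17, with 4 of 8 lower and 2 of 8 higher.

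**Figure D1:**
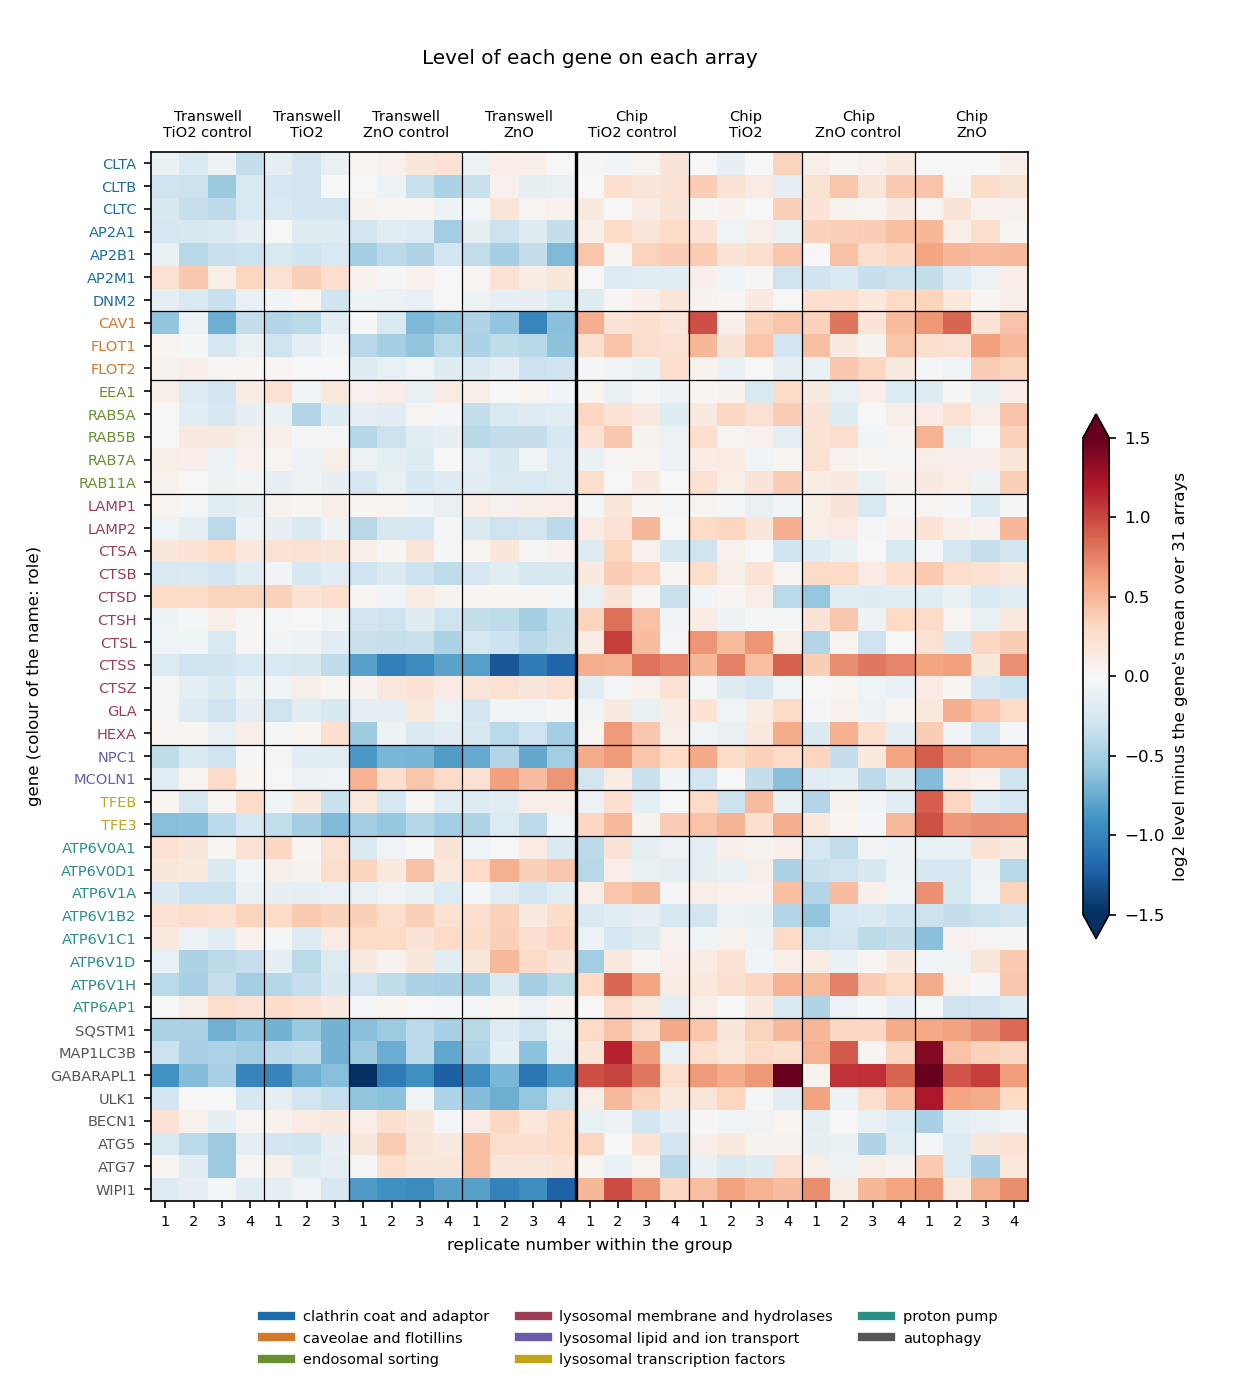
Level of each of the 46 genes (rows, grouped by role) on each of the 31 arrays (columns, grouped by culture system and exposure), as the log2 level minus the gene's mean over all arrays, with colours ending at 1.5 either way. The thick line divides Transwell from chip, and the rows of GABARAPL1, CTSS and WIPI1 change colour at it while ATP6V1B2 changes the opposite way.

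**Figure D2:**
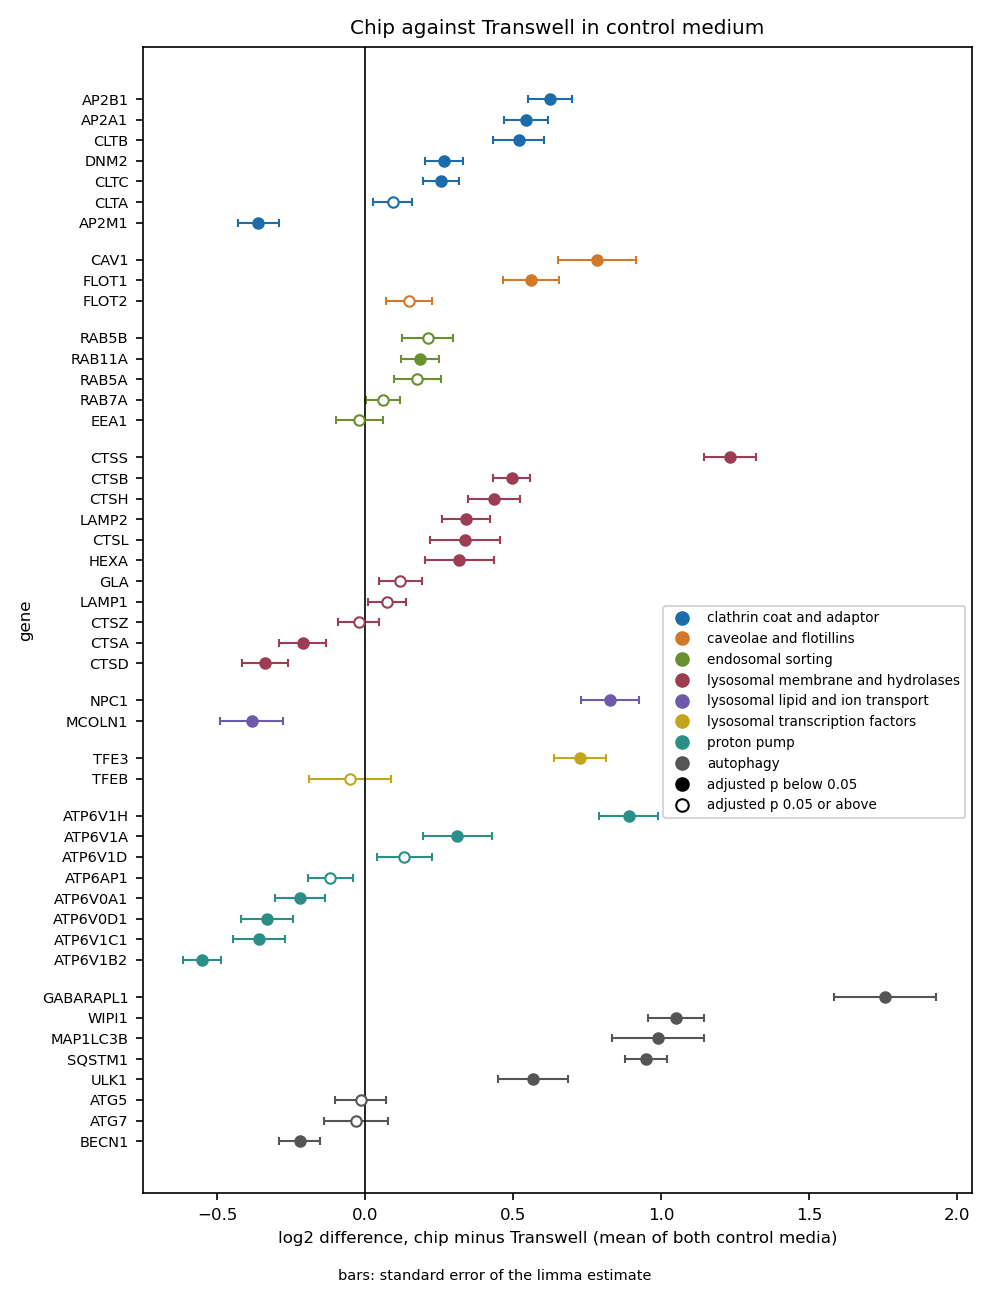
Log2 difference of chip minus Transwell, averaged over both control media, for each of the 46 genes in order of role. Points are limma estimates from 4 arrays per group, bars are standard errors, and filled points passed at an adjusted p below 0.05; filled points lie on the right for 23 genes and on the left for 9.

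Promoter sequence was read for these genes because TFEB and TFE3, the lysosomal regulators, are known to bind an E-box with the letters CACGTG, best in the longer form TCACGTGA. Both motifs read the same on either strand, and the longer one contains the shorter. The RefSeq promoter table (GRCh38.p14, 250 bases before to 50 after the start) held 38 of the 46 genes. CACGTG was present in 6 of these (15.8%), against 8.77% of the 27305 genes with a promoter and 10.5% of the 15489 of these tested here. A gene counted if any of its promoters held the motif. TCACGTGA was present in 5 (13.2%), against 1.18% and 1.61%. The stretches holding the motif follow, 5′ to 3′ on the gene's strand, with CACGTG in capitals.
RAB5A (chr3:19946961-19946996, plus strand, from -136 to -101 of the start): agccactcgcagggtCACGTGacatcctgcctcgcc
CTSD (chr11:1763954-1763989, minus strand, from -62 to -27): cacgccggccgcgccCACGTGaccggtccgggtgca
LAMP1 (chr13:113297032-113297258, plus strand, with 6 matches): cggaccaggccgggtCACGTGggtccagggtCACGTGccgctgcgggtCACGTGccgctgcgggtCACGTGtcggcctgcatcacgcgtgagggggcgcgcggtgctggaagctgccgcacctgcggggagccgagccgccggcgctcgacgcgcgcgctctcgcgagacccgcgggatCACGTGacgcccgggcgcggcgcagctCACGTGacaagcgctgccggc
ATP6V0D1 (chr16:67481196-67481231, minus strand, from -74 to -39): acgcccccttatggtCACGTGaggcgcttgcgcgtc
MCOLN1 (chr19:7522568-7522630, plus strand, with 2 matches): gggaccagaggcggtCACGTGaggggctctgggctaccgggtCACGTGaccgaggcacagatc
CTSA (chr20:45891278-45891330, plus strand, with 2 matches): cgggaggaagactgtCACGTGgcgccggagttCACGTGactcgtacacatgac
Of these 6 genes, CTSD, ATP6V0D1, MCOLN1 and CTSA were lower in the chip, with log2 differences of -0.34, -0.33, -0.38 and -0.21, and RAB5A and LAMP1 did not pass. RAB5A passed as higher (0.23, adjusted p = 0.0189) without the arrays labelled chip TiO2 control replicate 4 and chip TiO2 replicate 4. Over all tested genes with a promoter, 2472 of 15489 were higher and 3381 lower in the chip. Among the 1627 with CACGTG, 268 were higher (16.5%) and 413 lower (25.4%). Among the 249 with TCACGTGA, 39 were higher (15.7%) and 86 lower (34.5%). Of the 209 other genes of these pathways with a promoter, 16.7% held CACGTG and 6.22% TCACGTGA. Of the 35 with CACGTG, 8 were higher (22.9%) and 6 lower (17.1%). Of the 174 without it, 54 were higher and 36 lower, larger shares in both directions. A match describes the letters in this window and does not show that a factor binds there.

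Genes of the clathrin coat and its adaptor were mostly higher in the chip: 5 of 7 rose, 1 fell and 1 did not pass. AP2B1, which encodes the beta subunit of the AP-2 adaptor, read 10.07, 9.76, 9.85 and 9.87 on the Transwell arrays in TiO2 control medium and 10.6, 10.21, 10.52 and 10.55 on the chip arrays. The ZnO control medium gave 9.67, 9.79, 9.73 and 9.89 on inserts against 10.18, 10.63, 10.45 and 10.49 in the chip. The systems did not overlap in either medium, and the difference over both was 0.62 ± 0.073 (SE, adjusted p = 6.72e-08). Overlap of array values is described for single genes here and below, most of them picked for large differences. The share of all genes without overlap was not counted, so a lack of overlap adds no support beyond the test. AP2A1, which encodes an alpha subunit of the same adaptor, read 7.48, 7.5, 7.53 and 7.61 in Transwell against 7.82, 8.02, 7.93 and 8.04 in the chip in TiO2 control medium. The ZnO control medium gave 7.47, 7.59, 7.55 and 7.22 on inserts against 8.09, 8.1, 8.11 and 8.19 in the chip. Again the chip arrays all lay above the Transwell arrays, with a difference of 0.54 ± 0.073 (adjusted p = 6.48e-07).

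CLTB, a clathrin light chain gene, read 6.68, 6.66, 6.43 and 6.76 in Transwell against 7.0, 7.24, 7.17 and 7.19 in the chip in TiO2 control medium. In the other medium the values were 6.98, 6.91, 6.66 and 6.52 on inserts against 7.21, 7.41, 7.17 and 7.38 in the chip. Its arrays did not overlap between the systems, and it differed by 0.52 ± 0.087 (adjusted p = 1.85e-05). CLTC, the clathrin heavy chain gene, was higher by 0.26 ± 0.061, and DNM2, whose dynamin cuts vesicles from the membrane, by 0.27 ± 0.065. CLTA, the other light chain gene, differed by 0.093 ± 0.067 and did not pass. AP2M1, which encodes the adaptor subunit that reads sorting signals in cargo, went the other way, where it fell by 0.36 ± 0.069 (adjusted p = 0.000117), so of 3 subunit genes of the adaptor 2 rose and 1 fell.

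Of the 49 other endocytosis genes with a row, 24 passed, 16 as higher and 8 as lower. The one with the smallest p was CUBN, which encodes the receptor cubilin and fell by 3.52 on the log2 scale with a standard error of 0.22. EHD2, a caveola-associated ATPase gene, rose by 1.82 ± 0.19. SNX9, a membrane-bending sorting nexin gene, rose by 0.59 ± 0.066, and CAVIN1, the caveola coat gene, by 0.74 ± 0.095.

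Of the 3 genes of clathrin-independent routes 2 were higher in the chip. CAV1, the caveolin gene, read 4.44, 4.95, 4.3 and 4.68 in Transwell against 5.58, 5.24, 5.27 and 5.21 in the chip in TiO2 control medium. For ZnO control medium the readings were 5.02, 4.8, 4.36 and 4.43 on inserts against 5.38, 5.84, 5.22 and 5.51 in the chip. The lowest chip array stood above the highest Transwell array in each medium, and the difference was 0.78 ± 0.13 (adjusted p = 1.81e-05). FLOT1, a scaffold of membrane microdomains, read 9.11, 9.04, 8.81 and 8.97 on inserts against 9.31, 9.5, 9.33 and 9.29 in the chip in TiO2 control medium, and 8.65, 8.56, 8.47 and 8.66 on inserts against 9.52, 9.2, 9.12 and 9.47 in the chip in ZnO control medium. It did not overlap between systems and differed by 0.56 ± 0.095 (adjusted p = 2.16e-05), or by 0.53 as the mean of its 9 rows.

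FLOT2, the partner of FLOT1, differed by 0.15 ± 0.077 over both media and did not pass. In ZnO control medium alone it read 7.71, 7.79, 7.83 and 7.72 in Transwell against 7.79, 8.3, 8.22 and 8.04 in the chip, and it passed there at 0.32 ± 0.11 (adjusted p = 0.0259). The ranges of FLOT2 overlapped at the lowest chip array.

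Genes of endosomal sorting differed little. RAB11A, a Rab of recycling endosomes, was the one of 5 that passed. It read 10.02, 9.98, 9.9 and 9.94 in Transwell against 10.24, 9.96, 10.12 and 9.98 in the chip in TiO2 control medium, where the ranges overlapped. The other medium gave 9.72, 9.87, 9.73 and 9.78 on inserts against 10.09, 10.12, 9.87 and 10.02 in the chip, which did not overlap. The difference over both was 0.19 ± 0.065 (adjusted p = 0.0278). As the mean of its 2 rows RAB11A differed by 0.077 and did not pass (adjusted p = 0.557), and leaving out one array at a time gave adjusted p-values from 0.0143 to 0.0719.

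RAB5B, a Rab of early endosomes, differed by 0.21 ± 0.087 over both media and did not pass. In ZnO control medium it read 5.16, 5.27, 5.43 and 5.46 in Transwell against 5.8, 5.85, 5.54 and 5.63 in the chip, without overlap, and passed at 0.37 ± 0.12 (adjusted p = 0.0227). RAB5A differed by 0.18 ± 0.079, the late endosome gene RAB7A by 0.060 ± 0.057, and EEA1, which encodes the tether of early endosomes, by -0.019 ± 0.079, and none of the 3 passed. Without the arrays labelled chip TiO2 control replicate 4 and chip TiO2 replicate 4, RAB5A at 0.23 (adjusted p = 0.0189) and RAB5B at 0.25 (adjusted p = 0.0235) passed.

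Other endosome and recycling genes passed for 31 of 64 with a row, 17 higher and 14 lower. The 4 with the smallest p were RAB11FIP1, a partner of RAB11 proteins, at 0.89 ± 0.073, RAB9A of the late endosome to Golgi route at 0.94 ± 0.085, CHMP6 of the ESCRT machinery at -1.04 ± 0.097, and RAB27B, a Rab of secretory vesicles, at 1.81 ± 0.18.

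Genes of the lysosomal membrane and hydrolases went both ways, with 6 of 11 higher and 2 lower. CTSS, which encodes the cysteine protease cathepsin S, read 7.37, 7.26, 7.27 and 7.35 in Transwell against 8.13, 8.11, 8.39 and 8.32 in the chip in TiO2 control medium. It read 6.76, 6.56, 6.62 and 6.77 on inserts against 7.95, 8.27, 8.37 and 8.31 in the chip in ZnO control medium. The 2 systems were apart by more than the range within any group, and the difference was 1.23 ± 0.088 (adjusted p = 5.25e-12), a 2.35-fold higher level. CTSS is also abundant in antigen-presenting cells. Of the macrophage and monocyte markers, the means of CSF1R in TiO2 and ZnO control medium were 5.71 and 5.66 in Transwell and 6.67 and 6.94 in the chip. LYZ had means of 6.21 and 5.97 in Transwell and 7.10 and 6.73 in the chip, and ITGAM 2.74 and 2.61 against 3.44 and 3.44. MSR1 was lower in the chip, with 5.67 and 4.93 against 4.05 and 3.25, and CD14 had 5.58 and 5.76 against 5.51 and 5.34. MARCO had 3.00 and 3.18 against 3.395 and 3.03, and CD163 2.17 and 1.925 against 2.22 and 2.18. PTPRC, the general leukocyte marker, had means of 1.48 to 1.68 in all 8 groups, below the array medians.

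CTSB, the gene of cathepsin B, read 6.28, 6.29, 6.22 and 6.34 in Transwell against 6.65, 6.88, 6.83 and 6.53 in the chip in TiO2 control medium. In ZnO control medium it gave 6.2, 6.29, 6.18 and 6.13 on inserts against 6.79, 6.81, 6.63 and 6.77 in the chip. The systems did not overlap, and CTSB differed by 0.49 ± 0.062 (adjusted p = 1.88e-07). CTSH, the gene of cathepsin H, an aminopeptidase, read 4.67, 4.71, 4.82 and 4.77 on inserts against 5.08, 5.57, 5.19 and 4.71 in the chip in TiO2 control medium, where the array labelled chip TiO2 control replicate 4 lay within the Transwell range. The ZnO control medium gave 4.46, 4.44, 4.57 and 4.43 on inserts against 4.96, 5.15, 4.67 and 5.04 in the chip, without overlap. It differed by 0.44 ± 0.088 over both media (adjusted p = 0.000221).

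CTSL, the gene of cathepsin L, had an SD within chip groups of 0.323, against 0.075 in Transwell. It read 6.5, 6.51, 6.35 and 6.6 in Transwell against 6.69, 7.61, 7.03 and 6.56 in the chip in TiO2 control medium, and differed there by 0.48 ± 0.17 (adjusted p = 0.0347), with overlapping ranges. Over both media it differed by 0.34 ± 0.12. LAMP2, a glycoprotein of the lysosomal membrane, was higher by 0.34 ± 0.082, and HEXA, the alpha subunit of hexosaminidase, by 0.32 ± 0.12. CTSD, which encodes the aspartic protease cathepsin D, fell by 0.34 ± 0.079, and CTSA, a serine carboxypeptidase, fell by 0.21 ± 0.078. The calls of CTSL, HEXA and CTSA were lost in 4, 6 and 8 of the 31 fits that each left out 1 array. LAMP1, CTSZ and the alpha-galactosidase gene GLA did not pass, at 0.074 ± 0.063, -0.021 ± 0.069 and 0.12 ± 0.073.

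Of the 66 other lysosome genes with a row, 46 passed, 25 as higher and 21 as lower. IDS, which encodes iduronate sulfatase, was higher by 1.71 ± 0.096, LITAF, a late endosome membrane protein, by 1.12 ± 0.089, and LGMN, the asparaginyl endopeptidase legumain, by 1.08 ± 0.087. TFEC, a relative of TFEB, fell by 1.44 ± 0.11.

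Lipid and ion transport of the lysosome was read through 2 genes that went opposite ways. NPC1, which exports cholesterol from the lysosome, read 7.73, 7.89, 7.8 and 8.09 in Transwell against 8.67, 8.74, 8.53 and 8.41 in the chip in TiO2 control medium. For ZnO control medium the readings were 7.25, 7.43, 7.42 and 7.27 on inserts against 8.43, 7.76, 8.27 and 8.7 in the chip. There was no overlap, although chip replicate 2 of the latter group stood below the other chip arrays, and NPC1 differed by 0.83 ± 0.099 (adjusted p = 8.73e-08). MCOLN1, a cation channel of the lysosomal membrane, read 6.27, 6.49, 6.73 and 6.47 on inserts against 6.16, 6.57, 6.12 and 6.4 in the chip in TiO2 control medium, which overlapped, and 6.97, 6.69, 6.86 and 6.75 on inserts against 6.29, 6.31, 6.06 and 6.26 in the chip in ZnO control medium, which did not. It differed by -0.38 ± 0.11 over both (adjusted p = 0.00498).

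The gene of one of the 2 lysosomal transcription factors was higher in the chip. TFE3 read 6.55, 6.57, 6.79 and 6.94 in Transwell against 7.5, 7.68, 7.24 and 7.56 in the chip in TiO2 control medium. The other medium gave 6.69, 6.62, 6.77 and 6.69 on inserts against 7.35, 7.23, 7.17 and 7.68 in the chip. No Transwell array reached the chip range, and the difference was 0.72 ± 0.088 (adjusted p = 1.14e-07), a 1.65-fold higher level. TFEB lay near the array medians and differed by -0.051 ± 0.14, which did not pass.

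Genes of the proton pump, an ATPase with a cytosolic sector that splits ATP and a membrane sector that conducts protons, were split. ATP6V1H, a regulatory subunit of the cytosolic sector, read 6.68, 6.59, 6.74 and 6.58 in Transwell against 7.38, 7.95, 7.68 and 7.2 in the chip in TiO2 control medium. In ZnO control medium the values were 6.8, 6.71, 6.61 and 6.6 on inserts against 7.56, 7.84, 7.45 and 7.38 in the chip. It did not overlap between systems and differed by 0.89 ± 0.099 (adjusted p = 2.46e-08). ATP6V1B2, a nucleotide-binding subunit of the same sector, read 10.03, 10.05, 10.02 and 10.13 in Transwell against 9.56, 9.62, 9.66 and 9.55 in the chip in TiO2 control medium. It read 10.15, 10.06, 10.15 and 10.02 on inserts against 9.2, 9.54, 9.57 and 9.49 in the chip in ZnO control medium. Here every chip array lay below every Transwell array, with a difference of -0.55 ± 0.064 (adjusted p = 5.92e-08).

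ATP6V1C1, a stalk subunit, read 9.25, 9.03, 8.94 and 9.17 in Transwell against 9.03, 8.84, 8.93 and 9.18 in the chip in TiO2 control medium, which overlapped. The ZnO control medium gave 9.4, 9.4, 9.31 and 9.41 on inserts against 8.78, 8.82, 8.72 and 8.75 in the chip, well apart. Over both media it differed by -0.36 ± 0.087 (adjusted p = 0.00151). ATP6V1A, the catalytic subunit, read 9.12, 9.02, 9.01 and 9.24 in Transwell against 9.44, 9.75, 9.82 and 9.32 in the chip in TiO2 control medium, without overlap, and differed there by 0.49 ± 0.17 (adjusted p = 0.0317). Over both media it was higher by 0.31 ± 0.12, a call lost in 10 of the 31 fits without 1 array. The membrane sector genes ATP6V0D1 and ATP6V0A1 were lower, at -0.33 ± 0.086 and -0.22 ± 0.084, the latter call being lost in 11 of those 31 fits. ATP6V1D and the accessory subunit gene ATP6AP1 did not pass, at 0.13 ± 0.092 and -0.12 ± 0.075.

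Other proton pump genes passed for 9 of 18, 6 higher and 3 lower. ATP6V1B1, which encodes the other form of the subunit that ATP6V1B2 encodes, rose by 2.71 ± 0.15 (adjusted p = 3.07e-14), so the genes of the 2 forms went opposite ways. The ATP6V1B1 group means in TiO2 and ZnO control medium were 5.135 and 4.93 log2 in Transwell and 7.305 and 8.19 in the chip. ATP6V1E1, ATP6AP2 and ATP6V1G1, which encode further subunits, rose by 0.71 ± 0.078, 0.57 ± 0.070 and 0.54 ± 0.080.

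Autophagy genes were mostly higher, with 5 of 8 higher and 1 lower. GABARAPL1, which encodes a ubiquitin-like protein joined to autophagosome membranes, read 5.97, 6.24, 6.4 and 5.88 in Transwell against 7.85, 7.9, 7.67 and 7.14 in the chip in TiO2 control medium. For ZnO control medium the readings were 5.2, 5.82, 5.97 and 5.66 on inserts against 6.93, 7.97, 7.97 and 7.75 in the chip. The systems did not overlap, and GABARAPL1 differed by 1.76 ± 0.17 (adjusted p = 2.44e-09), 3.38-fold and more than any other of the 46 genes. WIPI1, which encodes a protein that binds the lipid of the forming autophagosome, read 9.11, 9.17, 9.29 and 9.13 on inserts against 9.79, 10.28, 9.97 and 9.61 in the chip in TiO2 control medium, and 8.45, 8.38, 8.34 and 8.49 on inserts against 10.0, 9.41, 9.8 and 9.89 in the chip in ZnO control medium. Its chip arrays were all above its Transwell arrays, with a difference of 1.05 ± 0.095 (adjusted p = 5.04e-10).

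MAP1LC3B, the gene of the LC3B protein, read 5.6, 5.44, 5.45 and 5.4 in Transwell against 6.1, 7.08, 6.54 and 5.81 in the chip in TiO2 control medium. The other medium gave 5.38, 5.18, 5.53 and 5.14 on inserts against 6.44, 6.84, 5.96 and 6.23 in the chip. Chip replicate 2 was the highest in both media and nothing overlapped, and the difference was 0.99 ± 0.16 (adjusted p = 7.57e-06). SQSTM1, which encodes a receptor that carries ubiquitin-tagged cargo into autophagosomes, read 6.46, 6.46, 6.21 and 6.3 on inserts against 7.23, 7.35, 7.19 and 7.49 in the chip in TiO2 control medium, and 6.3, 6.38, 6.53 and 6.45 on inserts against 7.42, 7.25, 7.24 and 7.48 in the chip in ZnO control medium. The systems did not overlap, with a difference of 0.95 ± 0.071 (adjusted p = 1.51e-11).

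ULK1, the kinase gene at the start of autophagy, was higher by 0.57 ± 0.12, and BECN1, of the lipid kinase complex, fell by 0.22 ± 0.068. ATG5 and ATG7, which act in the conjugation of the LC3 family, did not pass over both media, at -0.015 ± 0.085 and -0.031 ± 0.11. Of 54 other autophagy genes with a row 18 passed, 14 higher and 4 lower. LGALS8, whose galectin marks damaged vesicles, rose by 0.84 ± 0.082, ATG14 of the lipid kinase complex by 0.90 ± 0.093, WDR45B, a relative of WIPI1, by 0.68 ± 0.072, and OPTN, a cargo receptor gene, by 0.95 ± 0.11. Over all 5 lists of other genes 128 of 251 passed, 78 as higher and 50 as lower. Of all genes 14.6% passed as higher and 18.9% as lower, and of the brighter genes 24.1% and 32.0%. In both directions together 56.1% of the brighter genes passed, a larger share than of these 251.

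**Figure D3:**
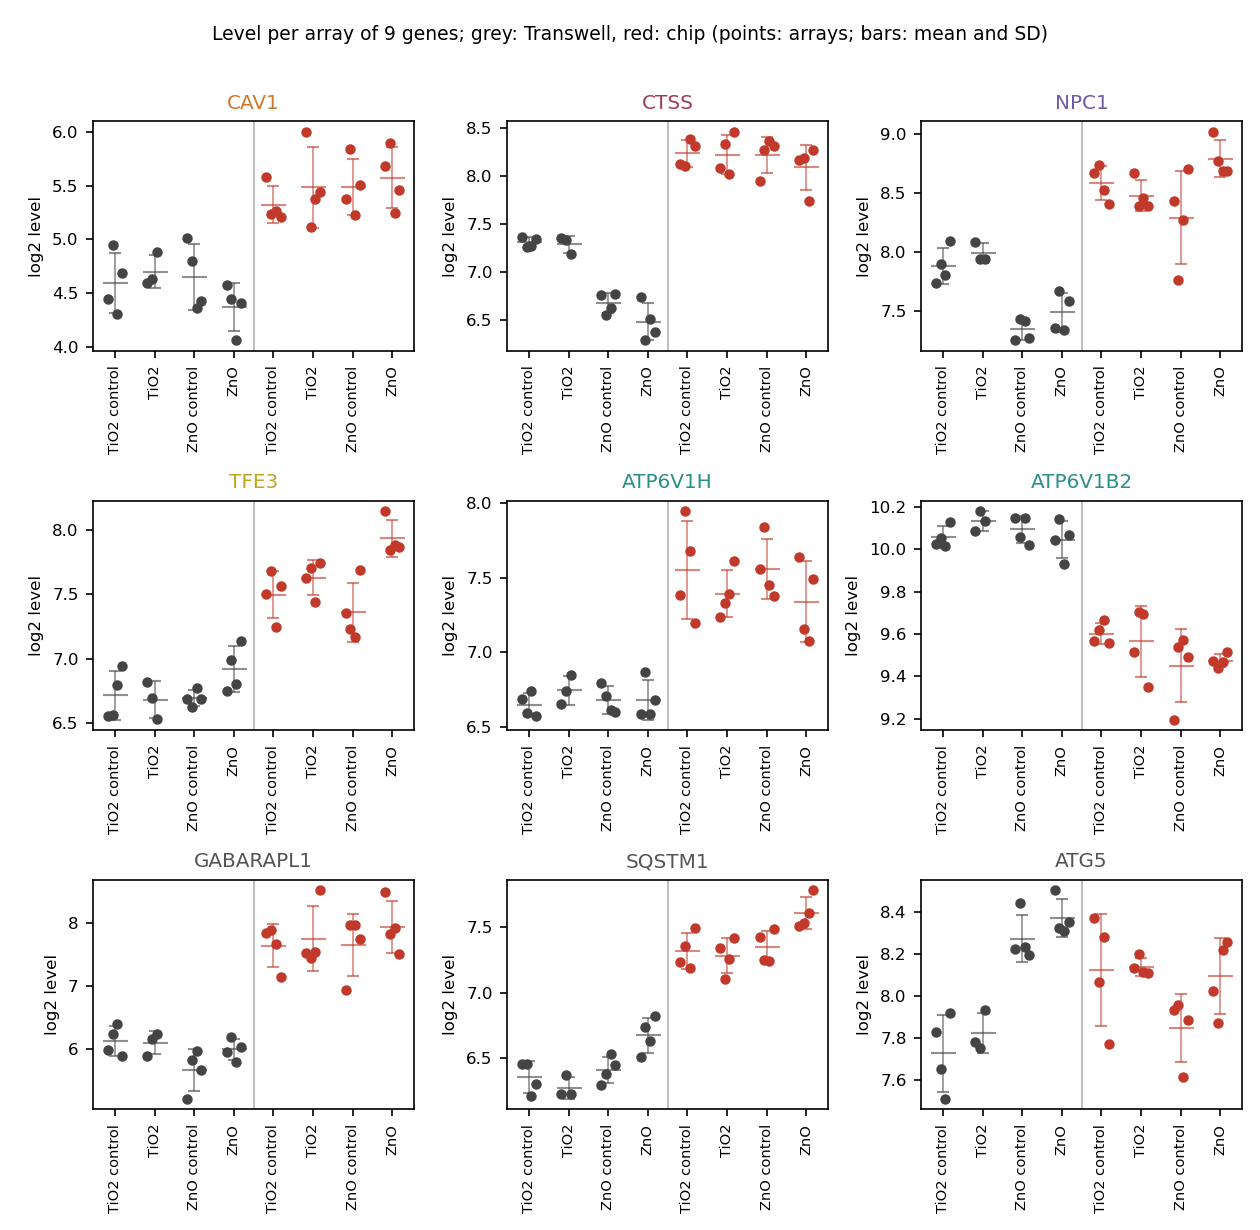
Log2 level on each array for 9 genes in the 8 groups, Transwell in grey and chip in red. Points are arrays, horizontal marks are group means and bars are SDs. Chip arrays lie above Transwell arrays for CAV1, CTSS, TFE3, ATP6V1H, GABARAPL1 and SQSTM1 and below them for ATP6V1B2, whereas the order of ATG5 turns between the media.

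The contrast was repeated in each control medium, with separate arrays for the means and a spread estimate shared by all groups. In TiO2 control medium 20 of the 46 genes were higher in the chip and 3 lower, against 9.42% and 13.5% of all genes and 16.2% and 23.3% of the brighter genes. These were 21 higher and 3 lower without the arrays labelled chip TiO2 control replicate 4 and chip TiO2 replicate 4, with all 23 among them. In ZnO control medium 20 were higher and 7 lower, against 12.3% and 14.9% of all genes and 20.7% and 25.7% of the brighter ones. The 2 lists shared 15 higher genes, of 20 in each, and 3 lower genes, which were AP2M1, ATP6V1B2 and CTSD. With arrays centred on the brighter genes, the TiO2 medium gave 2964 higher and 2378 lower of all genes and 26 higher and 2 lower of the 46, and the ZnO medium 3384 higher and 2858 lower of all genes and 22 higher and 6 lower of the 46. The shared higher genes were AP2A1, AP2B1, CLTB, CAV1, FLOT1, CTSB, CTSH, CTSS, NPC1, TFE3, ATP6V1H, GABARAPL1, MAP1LC3B, SQSTM1 and WIPI1.

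In TiO2 control medium the differences ranged from -0.46 for ATP6V1B2 to 1.52 for GABARAPL1, and in ZnO control medium from -0.64 to 1.99 for the same genes. CLTC (0.41 ± 0.086) and LAMP2 (0.39 ± 0.12) passed in TiO2 control medium, and DNM2 (0.31 ± 0.092), ULK1 (0.75 ± 0.17) and ATP6V0D1 (-0.51 ± 0.12) in ZnO control medium. In TiO2 control medium the calls of FLOT1, ATP6V1A, CTSL, CTSH, ATG5, LAMP2 and CTSD were lost in 7, 5, 5, 3, 3, 2 and 1 of the 31 fits without 1 array. Those of RAB11A, RAB5B, CTSD and FLOT2 in ZnO control medium were lost in 6, 4, 4 and 4. Whether these differ between the media is addressed by the next test, and a gene that does not pass it is not shown to be equal. Among the other genes of the pathways 82 of 251 passed in TiO2 control medium (32.7%), 50 higher and 32 lower. In ZnO control medium 114 passed (45.4%), 64 higher and 50 lower. Of the brighter genes 39.5% and 46.5% passed.

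A direct test of whether the contrast differed by medium, added after the data were seen, was passed by 1 of the 46 genes, in the lower direction, against 1.69% of all genes as higher and 1.05% as lower. That gene was ATG5, whose protein is joined to its partner before LC3 conjugation. In TiO2 control medium ATG5 read 7.83, 7.65, 7.51 and 7.92 in Transwell against 8.38, 8.07, 8.28 and 7.77 in the chip, overlapping, with a difference of 0.40 ± 0.12 (adjusted p = 0.0155). In ZnO control medium it read 8.22, 8.44, 8.24 and 8.2 in Transwell against 7.94, 7.96, 7.61 and 7.89 in the chip, without overlap, with a difference of -0.43 ± 0.12 (adjusted p = 0.00738). The call in TiO2 control medium was lost without Transwell TiO2 control replicate 3 or chip TiO2 control replicate 1 or 3 (adjusted p up to 0.0799) and with only the groups compared (0.117). Without the arrays labelled chip TiO2 control replicate 4 and chip TiO2 replicate 4 the difference was 0.51 (adjusted p = 0.00173). The 2 differences were apart by -0.82 ± 0.17 (adjusted p = 0.00758). Each control medium belonged to its own particle set, so medium and set cannot be told apart here. The Transwell arrays moved between the media by 0.55 ± 0.12 and the chip arrays by -0.28 ± 0.12, the latter not passing.

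CTSS, at 0.62 ± 0.18, and WIPI1, at 0.62 ± 0.19, had the next largest differences between the media and did not pass (adjusted p = 0.0511 and 0.0709). CTSS passed without the arrays labelled chip TiO2 control replicate 4 and chip TiO2 replicate 4 (0.65, adjusted p = 0.0377). The count was 3 without chip ZnO replicate 1. It was 2 without Transwell ZnO replicate 1, chip ZnO replicate 3, chip TiO2 replicate 3 or 4, chip TiO2 control replicate 2 or 4, or chip ZnO control replicate 1 or 2. Of the 251 other genes 9 passed (3.59%), against 4.91% of the brighter genes. They were led in their lists by PACSIN3 (0.78 ± 0.17), a caveola-associated gene, MFSD8 (-0.74 ± 0.18), a lysosomal membrane protein gene, and ATG16L2 (1.02 ± 0.24), a relative of the ATG5 partner.

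**Figure D4:**
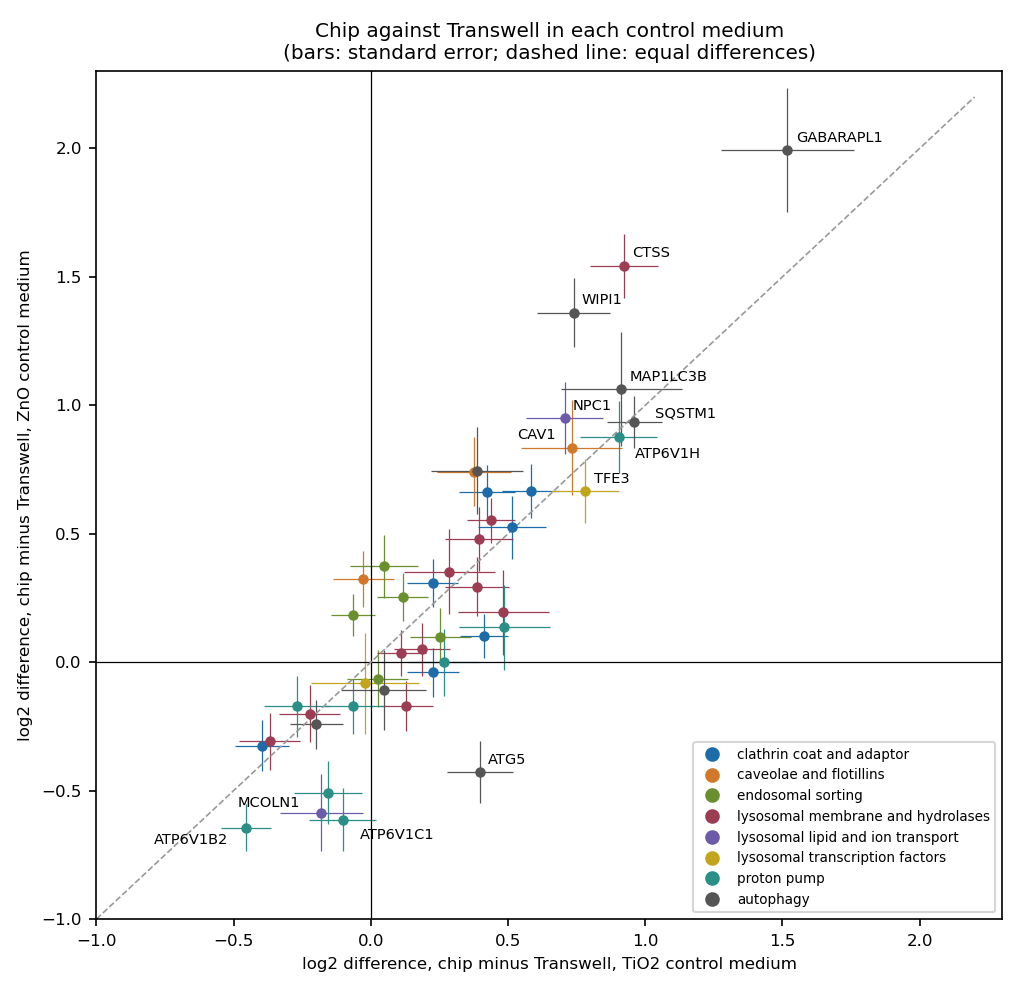
Log2 difference of chip minus Transwell for each of the 46 genes in TiO2 control medium (x axis) and ZnO control medium (y axis), coloured by role. Bars are standard errors of estimates from 4 arrays per group, and the dashed line marks equal differences; ATG5 is the gene that passed the test between the media, at 0.40 and -0.43.

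The control media were also compared within each system. Medium and particle set coincide here, so other differences between the sets cannot be told apart from the medium. On Transwell inserts 6 of the 46 genes passed between ZnO and TiO2 control medium, 3 higher and 3 lower, against 2.88% and 3.76% of all genes and 5.14% and 6.73% of the brighter genes. In the chip 0 passed, against 0.0134% and 0.0447% of all genes, with 5 of the 46 and 2171 of all genes at an unadjusted p below 0.05. The difference between systems was tested only as above.

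The lower genes in ZnO control medium on inserts were WIPI1, from 9.11, 9.17, 9.29 and 9.13 to 8.45, 8.38, 8.34 and 8.49 (-0.76 ± 0.13, adjusted p = 0.000761), CTSS, from 7.37, 7.26, 7.27 and 7.35 to 6.76, 6.56, 6.62 and 6.77 (-0.64 ± 0.12, adjusted p = 0.00191), and NPC1, from 7.73, 7.89, 7.8 and 8.09 to 7.25, 7.43, 7.42 and 7.27 (-0.54 ± 0.14, adjusted p = 0.0173). None of the 3 overlapped between the media. ATG5 was higher, with the values given above. CLTC rose from 10.64, 10.53, 10.49 and 10.65 to 10.93, 10.91, 10.91 and 10.8 (0.31 ± 0.086, adjusted p = 0.0277). CLTA rose from 7.23, 7.11, 7.26 and 6.98 to 7.36, 7.4, 7.5 and 7.55 (0.31 ± 0.094, adjusted p = 0.0464). Neither clathrin gene overlapped between the media, but the call of CLTA was lost in 23 of the 31 fits without 1 array, that of CLTC in 5 and that of NPC1 in 2. Without Transwell ZnO control replicate 1 the count fell from 6 to 3, and with array weights it rose to 12.

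In the chip the smallest p-values between the control media belonged to CTSL (-0.58 ± 0.17, unadjusted p = 0.0017, adjusted p = 0.196), DNM2 (0.22 ± 0.092, adjusted p = 0.427) and ATP6AP1 (-0.25 ± 0.11, adjusted p = 0.431). CTSL passed without chip TiO2 control replicate 4 (-0.72, adjusted p = 0.031). Among the 251 other genes 0 passed in the chip, where 32 had an unadjusted p below 0.05. On inserts 26 passed (10.4%), 13 in each direction, against 11.9% of the brighter genes. The other autophagy list had 8 of them, with LGALS8 at -0.61 ± 0.12, the mitophagy receptor gene BNIP3L at -0.73 ± 0.14, ATG16L2 at -0.86 ± 0.17 and OPTN at -0.75 ± 0.15. Of the endocytosis list EHD4 rose by 0.97 ± 0.17 and PACSIN3, EPS15 and SNX9 were lower, at -0.65 ± 0.12, -0.50 ± 0.11 and -0.34 ± 0.093. The endosome genes VPS33A, VAMP8, RAB8B and CHMP4C were higher, at 0.65, 0.40, 0.62 and 0.38. The lysosome genes MANBA, LAMTOR3, MFSD8 and NAGLU differed by -0.48, 0.65, 0.54 and -0.57, and the pump gene ATP6V1F by -0.47.

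Few of these genes passed for either particle within 6 h. After ZnO in the chip 1 of the 46 genes passed as higher and 0 as lower, against 0.237% and 0.0357% of all genes, and 8 of the 46 and 2109 of all genes had an unadjusted p below 0.05. The gene was TFE3. It read 7.35, 7.23, 7.17 and 7.68 in chip ZnO control medium and 8.14, 7.84, 7.88 and 7.87 after ZnO, with no overlap, a difference of 0.58 ± 0.12 (adjusted p = 0.0381). All 4 exposed arrays were above all 4 controls. The call was lost without any 1 of the 4 chip ZnO arrays or without chip ZnO control replicate 1, 2 or 3, with adjusted p-values from 0.053 to 0.161. It was also lost with array weights and with same-numbered exposed and control arrays paired as a block. The call was lost as well with the fit limited to the groups compared and with arrays centred on brighter genes. On Transwell inserts TFE3 read 6.69, 6.62, 6.77 and 6.69 in control medium and 6.74, 6.99, 6.8 and 7.14 after ZnO, which overlapped, with a difference of 0.23 ± 0.12 that did not pass.

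NPC1 and GLA came next in the chip. NPC1 read 8.43, 7.76, 8.27 and 8.7 in control medium against 9.02, 8.77, 8.69 and 8.69 after ZnO, a difference of 0.50 ± 0.14 (adjusted p = 0.144), and passed without chip ZnO control replicate 4 (adjusted p = 0.0251). GLA read 7.68, 7.78, 7.64 and 7.74 in control medium against 7.87, 8.26, 8.13 and 8.01 after ZnO, a difference of 0.36 ± 0.10 (adjusted p = 0.169). Control replicate 4 of NPC1 lay within the exposed range, and GLA did not overlap. The median difference of the 46 genes after ZnO in the chip was 0.052, and 28 of them were above 0. Of the 251 other genes 1 passed, ATG101 of the ULK1 complex, which rose by 0.63 ± 0.12 (adjusted p = 0.0183).

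After ZnO on Transwell inserts 0 of the 46 genes passed, and 0% of all genes passed in either direction; 1 of the 46 and 835 of all genes had an unadjusted p below 0.05. SQSTM1 had the smallest p of the 46. It read 6.3, 6.38, 6.53 and 6.45 in control medium and 6.51, 6.74, 6.63 and 6.82 after ZnO, a difference of 0.26 ± 0.10 (unadjusted p = 0.0152, adjusted p = 1.0). Only the lowest exposed array fell within the control range. ATP6V1D differed by 0.24 ± 0.13. The ZnO responses of the 2 systems were then compared directly, and 0 of the 46 genes passed, against 0.00447% of all genes as higher and 0% as lower, with 4 of the 46 and 1345 of all genes at an unadjusted p below 0.05. The smallest p was that of GLA, with a response larger in the chip by 0.41 ± 0.15 (adjusted p = 0.782), followed by RAB5A at 0.35 ± 0.16 and AP2B1 at 0.32 ± 0.15. The difference for TFE3 was 0.35 ± 0.18 (adjusted p = 0.84), so its responses in the 2 systems were not shown to differ.

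After TiO2 0 of the 46 genes passed in the chip and 0 on inserts, and 0% of all genes passed in either direction in each system. Unadjusted p-values below 0.05 were reached by 1 of the 46 and 1997 of all genes in the chip, and by 0 of the 46 and 591 of all genes on inserts. In the chip CTSH had the smallest p, with 5.08, 5.57, 5.19 and 4.71 in control medium and 4.86, 4.67, 4.71 and 4.71 after TiO2. It differed by -0.40 ± 0.13 (adjusted p = 0.363), and the array labelled chip TiO2 control replicate 4 lay within the range after TiO2. AP2A1 and CTSZ followed at -0.18 ± 0.10 and -0.15 ± 0.098. On inserts EEA1 (0.18 ± 0.12), LAMP1 (0.13 ± 0.096) and CTSZ (0.14 ± 0.11) had the smallest p-values.

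The fit was repeated without the arrays labelled chip TiO2 control replicate 4 and chip TiO2 replicate 4. Then 26 genes in all were higher and 47 lower after TiO2 in the chip, and still 0 of the 46. Those arrays were picked because they stood furthest against this same contrast. Leaving them out favours more calls, so the rise cannot show a TiO2 response. The TiO2 responses of the systems differed in 0 of the 46 genes, with 0% of all genes in either direction and 0 of the 46 and 1215 of all genes at an unadjusted p below 0.05. CTSH was again the gene with the smallest p, at -0.38 ± 0.18 (adjusted p = 0.898), followed by CTSZ at -0.29 ± 0.14 and AP2A1 at -0.27 ± 0.15. Of the 251 other genes 0 passed after TiO2 in the chip (32 at an unadjusted p below 0.05), 0 after TiO2 on inserts (4) and 0 after ZnO on inserts (3).

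**Figure D5:**
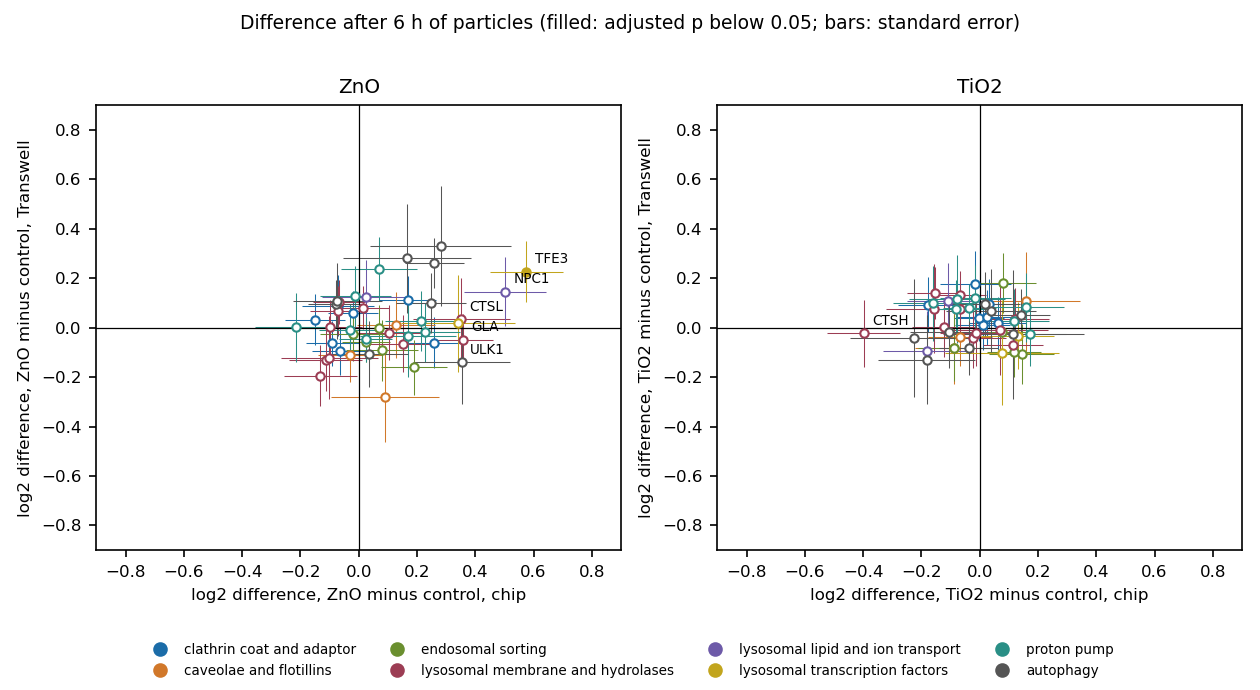
Log2 difference after 6 h of ZnO (left) or TiO2 (right) for each of the 46 genes, in the chip (x axis) and on Transwell inserts (y axis), with standard errors as bars. The filled point, TFE3 after ZnO at 0.58 in the chip, is the one that passed; the others are open and most lie within 0.3 of 0.

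The chip was last compared with the Transwell after particles, a comparison added after the data were seen. The means compared use none of the control arrays. The spread was estimated over all 31 arrays, controls included, so these calls are not independent of those in control medium. After TiO2 17 of the 46 genes were higher in the chip and 4 lower, against 7.92% and 10.2% of all genes and 13.4% and 17.8% of the brighter genes. After ZnO 25 were higher and 8 lower, against 13.3% and 16.5% of all genes and 21.6% and 28.7% of the brighter ones. Centred on the brighter genes, all genes split into 2423 higher and 1830 lower after TiO2 and 3957 higher and 3019 lower after ZnO, and the 46 into 22 higher and 1 lower and 26 higher and 5 lower. The nominal doses differed between the systems. Of the 23 genes that were higher in control medium, 15 (65.2%) were among the 17 after TiO2 and 20 (87.0%) among the 25 after ZnO. Without Transwell TiO2 replicate 3, which leaves 2 arrays in that group, 13 genes passed after TiO2 in place of 21. Without the arrays labelled chip TiO2 control replicate 4 and chip TiO2 replicate 4, 18 passed, 16 of them among the 21, and CLTB (0.41, adjusted p = 0.0362) and FLOT1 (0.54, adjusted p = 0.00348) were gained.

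After TiO2 the coat and uptake genes that differed most were AP2B1, with 9.95, 9.88 and 9.95 on inserts against 10.56, 10.39, 10.43 and 10.6 in the chip (0.57 ± 0.11), CLTC, with 10.65, 10.61 and 10.6 on inserts against 10.9, 10.93, 10.88 and 11.24 in the chip (0.37 ± 0.093), and CAV1, with 4.59, 4.63 and 4.88 on inserts against 6.0, 5.11, 5.38 and 5.45 in the chip (0.79 ± 0.20). AP2M1 read 7.72, 7.86 and 7.74 on inserts against 7.57, 7.43, 7.51 and 7.18 in the chip and fell by 0.35 ± 0.11. RAB5A read 6.13, 5.79 and 6.05 on inserts against 6.36, 6.55, 6.46 and 6.61 in the chip (0.50 ± 0.12, adjusted p = 0.00333). None of these 5 overlapped. RAB11A read 9.82, 9.9 and 9.86 on inserts against 10.21, 10.06, 10.16 and 10.34 in the chip, also without overlap (0.33 ± 0.10). The call of RAB11A was lost in 3 of the 31 fits without 1 array and 3 of 9 other settings (adjusted p up to 0.19), and that of AP2M1 in 2 and 3.

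Among lysosomal genes after TiO2, CTSS read 7.35, 7.33 and 7.19 on inserts against 8.08, 8.33, 8.02 and 8.46 in the chip (0.93 ± 0.13). CTSL read 6.53, 6.5 and 6.41 on inserts against 7.23, 7.04, 7.24 and 6.66 in the chip (0.56 ± 0.18), and LAMP2 8.64, 8.54 and 8.69 on inserts against 9.06, 9.09, 8.94 and 9.31 in the chip (0.47 ± 0.12). The chip arrays of all 3 stood above the insert arrays. NPC1 read 8.09, 7.94 and 7.94 on inserts against 8.67, 8.39, 8.46 and 8.39 in the chip (0.49 ± 0.15). TFE3 read 6.82, 6.69 and 6.53 on inserts against 7.62, 7.7, 7.43 and 7.74 in the chip (0.94 ± 0.13), the groups lying well apart. Smaller differences that passed were CTSB at 0.29, GLA at 0.37, CTSD at -0.35 and CTSA at -0.35. Without 1 array, the calls of CTSA, CTSD and CTSL were each lost in 5 of 31 fits, that of CTSB in 4, and those of GLA and NPC1 in 3. In the 9 other settings CTSA and CTSD were each lost in 4, GLA in 2 and CTSB in 1.

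In the proton pump and autophagy groups after TiO2, ATP6V1H read 6.65, 6.74 and 6.84 on inserts against 7.24, 7.33, 7.39 and 7.61 in the chip (0.65 ± 0.15). ATP6V1B2 read 10.09, 10.18 and 10.13 on inserts against 9.52, 9.7, 9.69 and 9.35 in the chip (-0.57 ± 0.098), so these 2 pump genes stayed on opposite sides. GABARAPL1 read 5.89, 6.16 and 6.24 on inserts against 7.52, 7.44, 7.53 and 8.53 in the chip (1.66 ± 0.26). SQSTM1 read 6.22, 6.37 and 6.23 on inserts against 7.34, 7.11, 7.26 and 7.42 in the chip (1.01 ± 0.11), and MAP1LC3B 5.53, 5.55 and 5.21 on inserts against 6.17, 6.08, 6.21 and 6.17 in the chip (0.73 ± 0.24). WIPI1 passed at 0.65, and the call of MAP1LC3B was lost in 6 of the 31 fits without 1 array. None of these genes overlapped between the systems.

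After ZnO 8 uptake genes passed. AP2B1 read 9.82, 9.69, 9.82 and 9.52 on inserts against 10.77, 10.68, 10.65 and 10.67 in the chip (0.98 ± 0.10), AP2A1 7.59, 7.43, 7.56 and 7.38 on inserts against 8.25, 7.85, 8.0 and 7.79 in the chip (0.48 ± 0.10), and CLTB 6.65, 7.05, 6.85 and 6.88 on inserts against 7.42, 7.02, 7.26 and 7.19 in the chip (0.36 ± 0.12). CLTB overlapped by 1 chip array and the adaptor genes did not overlap. CAV1 read 4.58, 4.45, 4.06 and 4.41 on inserts against 5.69, 5.9, 5.25 and 5.46 in the chip (1.20 ± 0.19), FLOT1 8.6, 8.69, 8.65 and 8.45 on inserts against 9.3, 9.3, 9.68 and 9.55 in the chip (0.86 ± 0.13), and FLOT2 7.68, 7.75, 7.58 and 7.6 on inserts against 7.88, 7.84, 8.27 and 8.23 in the chip (0.41 ± 0.11). No chip array of these 3 fell within the insert range. DNM2 (0.28) and AP2M1 (-0.27) also passed. The calls of AP2M1, CLTB and DNM2 were lost in 5, 3 and 2 of the 31 fits without 1 array.

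Endosomal genes passed for 4 of 5 after ZnO. RAB5B read 5.18, 5.23, 5.23 and 5.32 on inserts against 6.12, 5.48, 5.6 and 5.94 in the chip (0.55 ± 0.12), RAB5A 5.86, 6.0, 6.04 and 6.08 on inserts against 6.35, 6.46, 6.32 and 6.65 in the chip (0.45 ± 0.11), and RAB11A 9.81, 9.76, 9.75 and 9.78 on inserts against 10.11, 10.06, 9.9 and 10.33 in the chip (0.32 ± 0.092). All 3 were without overlap, and RAB7A passed at 0.27. RAB11A was lost in 2 of 9 other settings (adjusted p up to 0.103) and RAB7A in 1. Whether these differences are larger than in control medium is the ZnO response test above, which none of these genes passed.

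Of the lysosomal genes after ZnO, CTSS read 6.75, 6.3, 6.51 and 6.38 on inserts against 8.16, 8.19, 7.74 and 8.27 in the chip (1.61 ± 0.12), LAMP2 8.54, 8.46, 8.49 and 8.37 on inserts against 8.97, 8.85, 8.82 and 9.27 in the chip (0.51 ± 0.12), and CTSL 6.3, 6.25, 6.16 and 6.23 on inserts against 6.8, 6.36, 6.88 and 6.94 in the chip (0.51 ± 0.17). NPC1 read 7.35, 7.67, 7.34 and 7.59 on inserts against 9.02, 8.77, 8.69 and 8.69 in the chip (1.31 ± 0.14). These 4 were higher in every chip array than in any insert array. MCOLN1 read 6.67, 7.06, 6.91 and 7.12 on inserts against 5.8, 6.56, 6.52 and 6.14 in the chip (-0.69 ± 0.15) and was lower throughout. TFE3 read 6.74, 6.99, 6.8 and 7.14 on inserts against 8.14, 7.84, 7.88 and 7.87 in the chip (1.02 ± 0.12). CTSB, CTSH and GLA passed as higher (0.49, 0.50 and 0.46), and CTSZ and CTSA as lower (-0.31 and -0.30). The calls of CTSA, CTSZ and CTSL were lost in 7, 2 and 2 of the 31 fits without 1 array.

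The pump genes after ZnO were again split. ATP6V1H read 6.59, 6.87, 6.59 and 6.68 on inserts against 7.64, 7.16, 7.07 and 7.49 in the chip (0.66 ± 0.14), ATP6V0D1 9.17, 9.41, 9.23 and 9.28 on inserts against 8.63, 8.63, 8.8 and 8.46 in the chip (-0.64 ± 0.12), and ATP6V1B2 10.04, 10.14, 9.93 and 10.07 on inserts against 9.47, 9.44, 9.47 and 9.51 in the chip (-0.57 ± 0.091). The first was higher and the other two lower in every chip array, and ATP6V1C1 fell by 0.43 ± 0.12, a call lost in 1 of the 31 fits without 1 array. Among autophagy genes GABARAPL1 read 5.95, 6.19, 5.79 and 6.03 on inserts against 8.49, 7.83, 7.92 and 7.51 in the chip (1.95 ± 0.24), WIPI1 8.48, 8.29, 8.37 and 8.09 on inserts against 9.95, 9.45, 9.83 and 10.0 in the chip (1.5 ± 0.13), and ULK1 5.61, 5.53, 5.68 and 5.94 on inserts against 7.48, 6.85, 6.82 and 6.57 in the chip (1.24 ± 0.17). None overlapped. MAP1LC3B and SQSTM1 were higher by 0.95 ± 0.22 and 0.93 ± 0.10, and BECN1 fell by 0.41 ± 0.097.

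Among the 251 other genes 73 passed after TiO2 (29.1%), 45 higher and 28 lower, and 123 after ZnO (49.0%), 70 higher and 53 lower. Of the brighter genes 31.3% and 50.3% passed. ATP6V1B1 differed by 2.78 ± 0.23 after TiO2 and 3.20 ± 0.21 after ZnO, IDS by 1.59 ± 0.15 and 2.18 ± 0.14, and CUBN by -2.37 ± 0.34 and -4.16 ± 0.32. TAX1BP1, a cargo receptor gene of autophagy, differed by 0.83 ± 0.088 after ZnO and CHMP1B of the ESCRT machinery by 0.89 ± 0.11.

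The replicates of the chip spread more than those of the Transwell. The SD within groups, pooled over the 4 groups of a system, was larger in the chip for 44 of the 46 genes (95.7%), with a median of 0.182 against 0.112. Over all genes it was larger in the chip for 74.7%, and among the brighter genes for 87.9%, with medians of 0.236 and 0.145. The model uses 1 spread per gene for both systems.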

How the data were processed

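Total RNA (100 ng per sample) from 31 Caco-2 samples was labelled with an Affymetrix whole-transcript assay for arrays, per the labels' protocols. The authors deposited log2 values. The submitters' processing notes name RMA without a version. RMA equalises the distributions of the arrays, so a shift common to all genes would not be seen. The table held 53617 rows, of which 23871 name 1 gene, 1842 several and 27904 none, and 22569 rows were matched to RefSeq by identifier; the brightest row was kept for each of 22395 genes. No signal over background was used here, and the number of arrays limits the precision.

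The 8 groups entered one limma model, with a mean each (limma 3.58.1, R 4.3.3, 23 residual degrees of freedom), with Benjamini-Hochberg adjustment over all genes in each comparison and a threshold of 0.05. Simulated data checked the fit. The test of whether chip against Transwell differed by control medium was added after the data were seen. So was chip against Transwell after each particle. The 46 genes and the lists of other pathway genes were chosen with earlier results of these data known. Genes named with array values were, per comparison and role, up to 3 that passed with the largest difference, or the 3 with the smallest p where none passed. Of each other list up to 4 were named; further ones were chosen after their values were seen. Promoter sequences came from RefSeq (GRCh38.p14). The alternatives were an intensity trend, a robust prior, array weights, a replicate block, only the groups compared, dim genes left out, the mean of rows per gene, centring on the brighter genes, and leaving out arrays. Figures were drawn with matplotlib.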

Additional observations from a re-analysis of the deposited data

Results flagged for a closer look

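Within groups of 4 arrays, 266 sets of values from the genes given with array values were searched for a single array standing apart from the other 3, and 16 were found. Chance gives about 1 in 20. The chip arrays that stood apart from their group were CLTA at 7.411 log2 (ZnO replicate 4), CLTC at 11.244, ATP6V1A at 9.785 and GABARAPL1 at 8.526 (all TiO2 replicate 4, one of the 2 arrays furthest against their labels), and AP2M1 at 7.499 and CAV1 at 5.578 (both TiO2 control replicate 1). In chip ZnO replicate 1, TFE3 stood apart at 8.145, ATP6V1C1 at 8.485 and MAP1LC3B at 7.292.

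The Transwell arrays that stood apart were, in the ZnO control group, CTSH at 4.567 (replicate 3), CTSL at 6.10 (replicate 4), ATP6V1C1 at 9.307 (replicate 3) and ATG5 at 8.444 (replicate 2). In the Transwell ZnO group they were CTSB at 6.337 (replicate 2), CTSH at 4.248 (replicate 3) and GLA at 7.421 (replicate 1).

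The difference between chip and Transwell was itself different between the control media for ATG5, by -0.82 (ZnO minus TiO2 control medium), as tested in the limma fit.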

How the results depend on the processing

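Passing genes of the 46 numbered 27 to 33 for chip against Transwell in both control media without 1 array, 17 to 24 in TiO2 and 23 to 28 in ZnO control medium, and 30 to 33 after ZnO. After TiO2 they numbered 13 to 22 in place of 21. For ZnO against control in the chip the count of 1 became 0 with array weights, with the replicate block, with only the groups compared and with centring on the brighter genes, and 0 to 2 without 1 array. Between control media on inserts the count of 6 became 12 with array weights and 3 to 7 without 1 array. In the chip the 0 became 1 without both replicate 4 arrays of the chip TiO2 set, and 0 to 1 without 1 array. The difference between media gave 3 with an intensity trend, array weights or dim genes left out, 2 without both replicate 4 arrays, and 1 to 3 without 1 array.

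Of the 251 other genes, those passing after ZnO in the chip were 2 with an intensity trend, 0 with array weights, the replicate block or only the groups compared, 3 with dim genes left out, 2 without both replicate 4 arrays, and 0 to 2 without 1 array, in place of 1. Between control media in the chip they were 9 without both replicate 4 arrays and 0 to 8 without 1 array, in place of 0. On inserts they were 54 with array weights, 43 with dim genes left out and 16 to 37 without 1 array, in place of 26. The difference between media gave 15 with array weights, 19 with dim genes left out and 3 to 14 without 1 array, in place of 9. The causes were not tested.

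No gene that passed changed sign in that comparison under the alternatives run; genes that did not pass were not followed. Centring on the brighter genes did turn the balance of all genes, from 3260 higher and 4235 lower in the chip to 4370 and 3474. Replicate numbers are shared by the groups, but whether they pair the arrays is not settled. Over the brighter genes, with group means taken off, correlations of same-numbered arrays ran from -0.232 to 0.175. Arrays with different numbers were not compared in this way. With the replicate number as a block, 31 of the 46 genes passed for chip against Transwell in both control media, 22 in TiO2 and 27 in ZnO control medium, and 6 between control media on inserts. With same-numbered exposed and control arrays of a system and particle paired as a block, 0 passed after ZnO in the chip. Signal over background and depth are not known for these values, so small differences in dim genes such as TFEB could not be weighed.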
